A study of Mus musculus with 26 samples.

Results

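The genes described here are 10 inflammatory and regenerative cytokines and their receptors: the ligands *Il1b*, *Tnf*, *Il6*, *Lif*, *Osm*, *Il10* and *Csf1*, the antagonist *Il1rn*, and the receptor chains *Il6ra* and *Osmr*. They were chosen by symbol. Each of the 10 had 1 row in both deposited expression tables, among 53465 gene rows in the regeneration table and 55487 in the C2C12 table. The first table held tibialis anterior (TA) muscle of 6-week-old male C57BL/6 J mice on D0, D1, D3, D5 and D10 around an injection of cardiotoxin (CTX), a snake venom toxin that destroys muscle fibres. The labels give only the day, and saline served as control in the methods, so whether D0 muscle was untouched or had received saline is not settled. The second table held C2C12 cells, an established mouse myoblast line, in growth medium (GM) or after 3 days in differentiation medium (DM3). Cas9M3 cells were puromycin-selected stable lines carrying a lentiviral vector in which a ubiquitin C promoter drives dCas9-KRAB, a catalytically dead Cas9 fused to a transcriptional repressor, with guides to the promoter of *Mettl3*, the gene of the m6A RNA methyltransferase. Ctrl cells were their controls, called wild type in the series' design text (which calls the Cas9M3 cells knockout derivatives), and the vector they carried is not given in the sources used here. Each of the 5 days and each of the 4 cell groups had 2 libraries, 18 of the 26 in the series, and the other 8, with *Mettl3* or GFP overexpression, were not analysed here.

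As background, IL-1β (*Il1b*) and TNF (*Tnf*) are early inflammatory cytokines that myeloid cells release and that act through NF-κB, and the IL-1 receptor antagonist (*Il1rn*) occupies the IL-1 receptor without signalling. IL-6, LIF and oncostatin M (*Osm*) form a family that signals through the shared chain gp130 and STAT3, with IL-6Rα (*Il6ra*) and OSMRβ (*Osmr*) as ligand-specific chains. IL-10 restrains macrophage activation, and CSF-1 (*Csf1*) sustains monocytes and macrophages, which enter injured muscle, clear dead fibres and then support the myoblasts that rebuild it.

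FPKM is a gene's fragment count divided by transcript length and a scaling factor for the library, so levels can be compared between genes within a table. Here that factor was not the plain total of reads, as median-ratio factors of the deposited values were equal in all libraries of a table. The 2 tables were scaled separately and no value was compared across them. Steps in the low values gave 14160000 to 18820000 reads on genes per muscle library and 14250000 to 29600000 per C2C12 library. *Mettl3* was at 4.70 and 5.65 FPKM in Ctrl GM and 0.331 and 0.118 in Cas9M3 GM, and at 4.68 and 5.15 in Ctrl DM3 and 0.148 and 0.0805 in Cas9M3 DM3. Replicate 2 of every C2C12 group had 8.03% to 27.3% of its reads on the ribosomal RNA locus *CT010467.1*, against at most 0.514% in replicate 1. *Xist*, the RNA of the inactive X chromosome, was at 5.77 to 10.0 FPKM in both libraries of D0 and D10 and in replicate 2 of D3, and at most 0.152 in the other 5 muscle libraries, although the methods name male mice. D1 and D5 therefore cannot be told apart from this difference when they are set against D0. With a term for *Xist* in the tests below, 0 of the 16753 genes tested were called on D1 or D5 against D0 or from D3 to D5. Without the term 1005, 4267 and 2126 genes were called there. A call lost with this term in these comparisons is thus no trait of a single gene. Nothing in the sources says which libraries came from separate animals or cultures, so p-values measure only the spread between these libraries. Fewer cells of a type and less RNA per cell cannot be told apart in these bulk samples.

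In regenerating muscle, 7 of the 10 genes reached 0.5 FPKM in at least 2 libraries and were tested, and *Il6*, *Il10* and *Lif* did not. A log2 fold change is a difference of log2(FPKM + 0.1) with its SE, and a gene was called when its p, adjusted over all 16753 genes tested, was 0.05 or less (limma, Benjamini-Hochberg). On D1, *Csf1* and *Osmr* were called higher than on D0, 2 of 7, where 3.53% of all genes tested were called higher. On D3, *Il6ra*, *Csf1* and *Osmr* were called higher, 3 of 7, against 24.5% of all genes. On D5 only *Il6ra* was called higher, 1 of 7 against 12.9% of all genes. On D10 none of the 7 was called in either direction, where 0.00597% of all genes were. At an unadjusted p under 0.05 on D10 were 0 members and 1697 of the 16753 genes tested (limma). Requiring a log2 fold change of at least 2 as well left *Il6ra* on D3, 1 of 7, against 9.46% of all genes. The median log2 fold change of the 7 genes was 1.34 on D1, 1.14 on D3, 0.42 on D5 and −0.14 on D10, beside 0.0, 0.008, 0.0 and 0.001 over all genes tested. The D1 median is the value of *Il1rn*, which reached 0.5 FPKM in 2 libraries only, both of D1. *Osm* reached it in 3 libraries only, all of D1 or D3. The filter thus favoured rises on these days and falls after them, and the medians are not free of it.

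**Figure D1:**
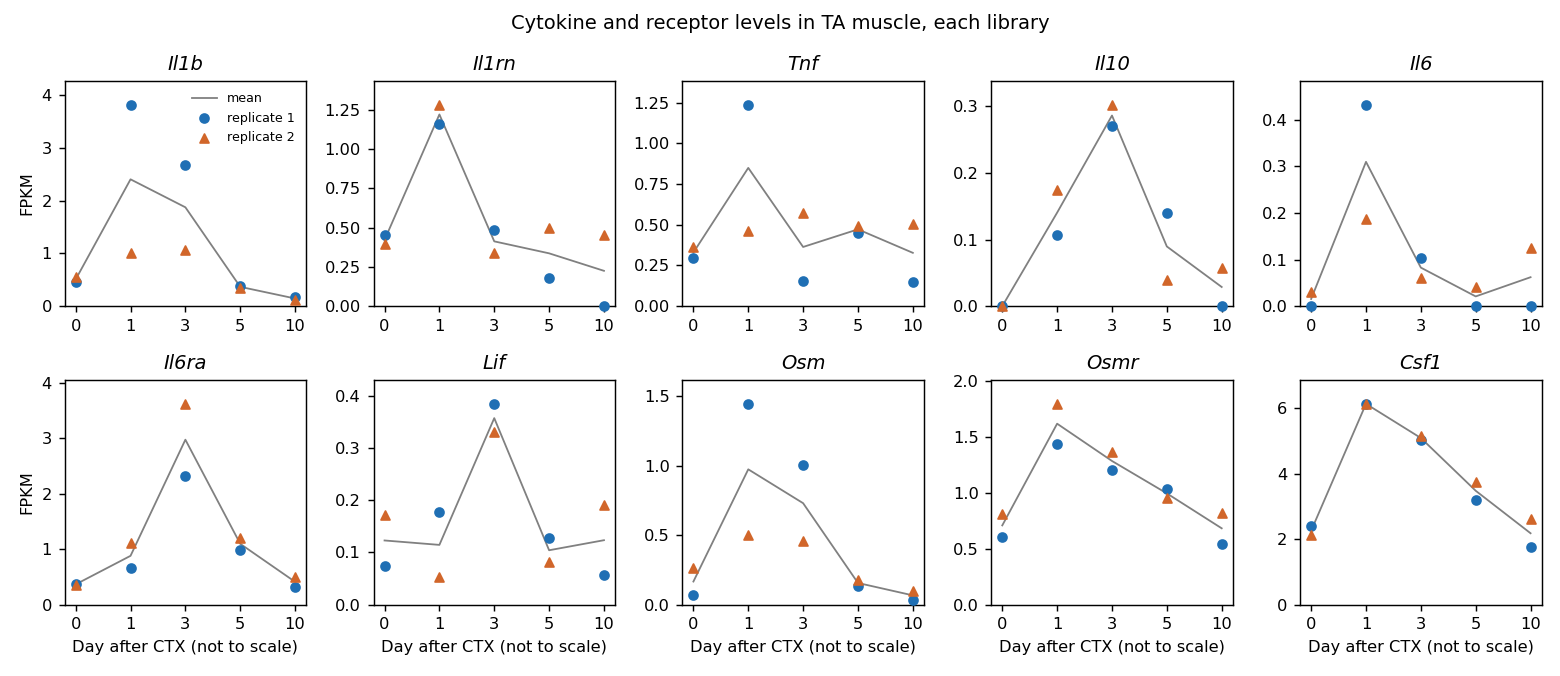
FPKM (vertical axis, from 0) of the 10 genes in each TA library by day after CTX (horizontal axis, days not to scale); circles are replicate 1, triangles replicate 2 and grey lines the mean of both. *Csf1* was at 6.12 and 6.13 on D1 against 2.39 and 2.13 on D0, while *Il6ra*, *Il10* and *Lif* had their highest values on D3.

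*Csf1* (ENSMUSG00000014599, GRCm38 chr3:107741048-107760469, minus strand) encodes the growth factor of macrophages and had the highest level of the 10 genes in each of the 10 muscle libraries. Its 2 libraries read 2.39 and 2.13 FPKM on D0, 6.12 and 6.13 on D1, 5.04 and 5.13 on D3, 3.20 and 3.75 on D5, and 1.75 and 2.61 on D10. Both libraries of D1, D3 and D5 lay above both of D0, while D10 overlapped D0. The log2 fold change against D0 was 1.40 ± 0.197 on D1 (adjusted p = 0.0204), 1.14 ± 0.197 on D3 (adjusted p = 0.00280) and 0.60 ± 0.197 on D5 (adjusted p = 0.0604). The D1 call was lost without either D0 library, D1 replicate 1 or either D3 library (adjusted p 0.0523 to 0.118) and with a term for *Xist* (adjusted p = 0.396). The D3 call was kept with each library left out in turn (adjusted p at most 0.0230) and in every other fit tried (adjusted p at most 0.0190), though its fold change is below the rule above. *Csf1* then fell by 1.21 ± 0.197 from D3 to D10 (adjusted p = 0.00330), and this call too was kept in every fit tried (adjusted p at most 0.0422).

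*Il6ra* (ENSMUSG00000027947, chr3:89864059-89913196, minus strand) encodes the chain that binds IL-6. It stood at 0.381 and 0.355 FPKM on D0, 0.655 and 1.11 on D1, 2.33 and 3.62 on D3, 0.994 and 1.20 on D5, and 0.321 and 0.506 on D10. The days ran in the order D3, D5, D1, D10 and D0 by mean, and only the D3 libraries lay above every library of the other days. Its rise on D3 was the largest of the 7 genes, 2.68 ± 0.333 (adjusted p = 7.5e-04), and it was kept with each library left out and in every other fit (adjusted p at most 0.0105). On D5 it was still 1.35 ± 0.333 above D0 (adjusted p = 0.0267), a call lost without either library of D0 or of D5 (adjusted p 0.0738 to 0.148) and with the term for *Xist* (adjusted p = 0.181). *Il6ra* was also the only one of the 7 called between D1 and D3, with a rise of 1.65 ± 0.333 (adjusted p = 0.0105, 0.0840 without D3 replicate 2 and 0.0792 with the *Xist* term), where 14.5% of all genes were called higher. From D3 to D5 it fell by 1.33 ± 0.333 (adjusted p = 0.0407), 1 of 7 genes against 5.46% of all genes called lower, and leaving out any library of D0, D3 or D5 lost that call (adjusted p 0.0601 to 0.239), as did the *Xist* term (adjusted p = 0.227). Of its exons, 242 of 8642 bases overlap *Gm42809* on the other strand, and whether counting used strand is not given in the sources used here.

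*Osmr* (ENSMUSG00000022146, chr15:6813577-6874969, minus strand), the receptor chain of oncostatin M, moved within a narrower range. Its libraries were at 0.610 and 0.810 FPKM on D0, 1.44 and 1.80 on D1, 1.21 and 1.36 on D3, 1.03 and 0.959 on D5, and 0.546 and 0.822 on D10. D1, D3 and D5 lay wholly above D0. The log2 fold change was 1.09 ± 0.250 on D1 (adjusted p = 0.0481) and 0.78 ± 0.250 on D3 (adjusted p = 0.0334). The D1 call was lost without any library of D0, D1, D3 or D5 (adjusted p 0.080 to 0.233), and the D3 call without D0 replicate 1 or any library of D3 or D5 (adjusted p 0.0547 to 0.167). With the *Xist* term both calls were lost (adjusted p = 0.433 and 0.0827). Over all genes tested, 0 were called with that term on D1 and 5855 on D3, against 1005 and 8179 without it.

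For these receptor and ligand genes the bases before the RefSeq start were searched for 4 motifs on both strands, AP-1 (TGANTCA), STAT (TTCNNNGAA), C/EBP (TTGCNNAA) and the κB consensus. The 250 bases before the start of *Csf1* and *Il6ra*, the 2 genes whose D3 calls were kept in every fit, and of *Lif*, the member with a called change in C2C12 cells, are shown 5′ to 3′ in the direction of the gene, from RefSeq on GRCm38.p6, with motif matches in capitals.
Csf1 (chr3:107760470-107760719, minus strand): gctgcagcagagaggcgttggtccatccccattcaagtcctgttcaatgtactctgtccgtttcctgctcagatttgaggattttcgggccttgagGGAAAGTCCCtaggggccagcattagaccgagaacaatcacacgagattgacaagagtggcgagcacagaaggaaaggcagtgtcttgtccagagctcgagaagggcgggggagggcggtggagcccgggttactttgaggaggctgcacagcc
Il6ra (chr3:89913197-89913446, minus strand): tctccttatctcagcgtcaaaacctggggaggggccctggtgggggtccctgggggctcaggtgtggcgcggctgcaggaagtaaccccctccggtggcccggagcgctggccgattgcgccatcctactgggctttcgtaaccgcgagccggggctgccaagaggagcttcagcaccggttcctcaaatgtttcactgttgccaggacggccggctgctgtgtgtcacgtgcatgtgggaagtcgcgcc
Lif (chr11:4257318-4257567, plus strand): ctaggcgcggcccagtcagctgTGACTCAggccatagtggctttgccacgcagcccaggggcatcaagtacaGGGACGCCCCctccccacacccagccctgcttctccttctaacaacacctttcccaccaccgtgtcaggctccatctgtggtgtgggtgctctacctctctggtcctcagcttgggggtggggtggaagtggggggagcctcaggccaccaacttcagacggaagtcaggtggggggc
The *Csf1* window held 1 κB match that begins 154 bases before the start, the *Il6ra* window held no match to the 4 motifs, and the *Lif* window held an AP-1 match and a κB match, 228 and 178 bases before the start. Promoter entries were found for 8 of the 10 genes, not for *Il10* and *Osm*. These genes had 10 windows, as *Il1rn* had more than 1, and the shares over all genes are by window. An AP-1 match was present in 3 of the 8 genes (*Il1rn*, *Il6* and *Lif*), or 3 of 10 windows, and in 6.75% of all 32851 windows of this length. A κB match was present in 3 genes (*Csf1*, *Il6* and *Lif*), or 3 of 10 windows, and in 7.25% of all windows. C/EBP was matched in 1 gene (*Il6*), or 1 of 10 windows, and in 9.56% of all windows, and STAT in 0 of 10 and 7.02%. The *Osmr* window lies wholly within an annotated GENCODE exon and is not shown.

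*Il1b* (ENSMUSG00000027398, chr2:129364570-129371139, minus strand) was at 0.463 and 0.550 FPKM on D0, 3.81 and 0.998 on D1, 2.68 and 1.06 on D3, 0.386 and 0.346 on D5, and 0.171 and 0.119 on D10. Both libraries of D1 and of D3 lay above both of D0, but the 2 libraries of D1 differed 3.82-fold and those of D3 2.52-fold. The log2 fold changes of 1.78 ± 0.613 on D1 (adjusted p = 0.118) and 1.57 ± 0.613 on D3 (adjusted p = 0.0664) missed the threshold. The call was gained on D1 without D1 replicate 2 (adjusted p = 0.0293) and on D3 without either D1 library (adjusted p 0.0210 to 0.0229). From D3 to D10 *Il1b* fell by 2.89 ± 0.613 (adjusted p = 0.00905, 0.0632 without D3 replicate 1 and 0.0610 with the *Xist* term), to 4 and 3 implied reads. Of its exons, 25 of 1907 bases overlap *Il1bos* on the other strand.

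*Il1rn* (ENSMUSG00000026981, chr2:24336853-24351494, plus strand), the antagonist, was highest on D1 alone. Its values were 0.450 and 0.392 FPKM on D0, 1.16 and 1.28 on D1, 0.485 and 0.339 on D3, 0.177 and 0.495 on D5, and 0 and 0.450 on D10. Both D1 libraries lay above the other 8, and D3, D5 and D10 overlapped D0. The difference on D1 was 1.34 ± 0.748 (adjusted p = 0.294). On D10 replicate 1 had 0 implied reads and replicate 2 had 33, and leaving out a D10 library gave calls for lower values on D3 than D1 (adjusted p = 0.0438 without replicate 1) and on D10 than D3 (adjusted p = 0.0162 without replicate 2). The ratio of *Il1rn* to *Il1b* was 0.971 and 0.714 on D0, 0.305 and 1.28 on D1, 0.181 and 0.319 on D3, 0.459 and 1.43 on D5, and 0 and 3.79 on D10. Both D3 ratios lay below both of D0, the libraries of D1, D5 and D10 fell on either side of D0, and the ratio was not tested.

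*Tnf* (ENSMUSG00000024401, chr17:35199381-35202007, minus strand) was at 0.294 and 0.366 FPKM on D0, 1.24 and 0.464 on D1, 0.155 and 0.573 on D3, 0.449 and 0.495 on D5, and 0.149 and 0.506 on D10. Apart from D1 replicate 1, every library was below 0.6 FPKM. The log2 fold change on D1 was 1.02 ± 0.642 (adjusted p = 0.352), and *Tnf* was not called in any comparison of days.

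*Osm* (ENSMUSG00000058755, chr11:4236420-4241026, plus strand), released mainly by myeloid cells, followed *Il1b*. Its libraries were at 0.0707 and 0.264 FPKM on D0, 1.44 and 0.503 on D1, 1.00 and 0.457 on D3, 0.135 and 0.179 on D5, and 0.0359 and 0.0996 on D10. D1 and D3 lay above D0, with replicate 1 above replicate 2 on both days as for *Il1b*. Across the 10 muscle libraries, which share the course of injury, the levels of the 2 genes on the log2 scale had a Pearson r of 0.952. The differences of 1.95 ± 0.627 on D1 (adjusted p = 0.101) and 1.65 ± 0.627 on D3 (adjusted p = 0.0607) missed the threshold, the latter passing it without D1 replicate 2 (adjusted p = 0.0452). From D3 to D10 *Osm* fell by 2.25 ± 0.627 (adjusted p = 0.0256), a call lost without D3 replicate 1 or D10 replicate 1 (adjusted p 0.123 to 0.140) or with the *Xist* term (adjusted p = 0.136), and D10 rested on 1 and 3 implied reads.

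From D3 to D10, 5 of the 7 genes were called lower (*Il6ra*, *Il1b*, *Osm*, *Csf1* and *Osmr*), where 18.8% of all genes tested were. *Il6ra* fell by 2.57 ± 0.333 (adjusted p = 0.00136, and at most 0.0261 in every fit tried), and *Osmr* fell by 0.84 ± 0.250 (adjusted p = 0.0324), a call lost without D10 replicate 1 or any library of D3 or D5 (adjusted p 0.0549 to 0.171) and with the *Xist* term (adjusted p = 0.0880). With the fold change rule as well, 3 of 7 remained (*Il6ra*, *Il1b* and *Osm*), against 6.10% of all genes. Over all fits tried, their log2 fold changes nearest to none were −1.48, −1.27 and −0.68 in that order, short of this rule. *Osm* passed the filter only through libraries of D1 and D3, so its fall is not free of that selection. D3 is shared by the comparisons with D0, D5 and D10, so these are not independent.

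**Figure D2:**
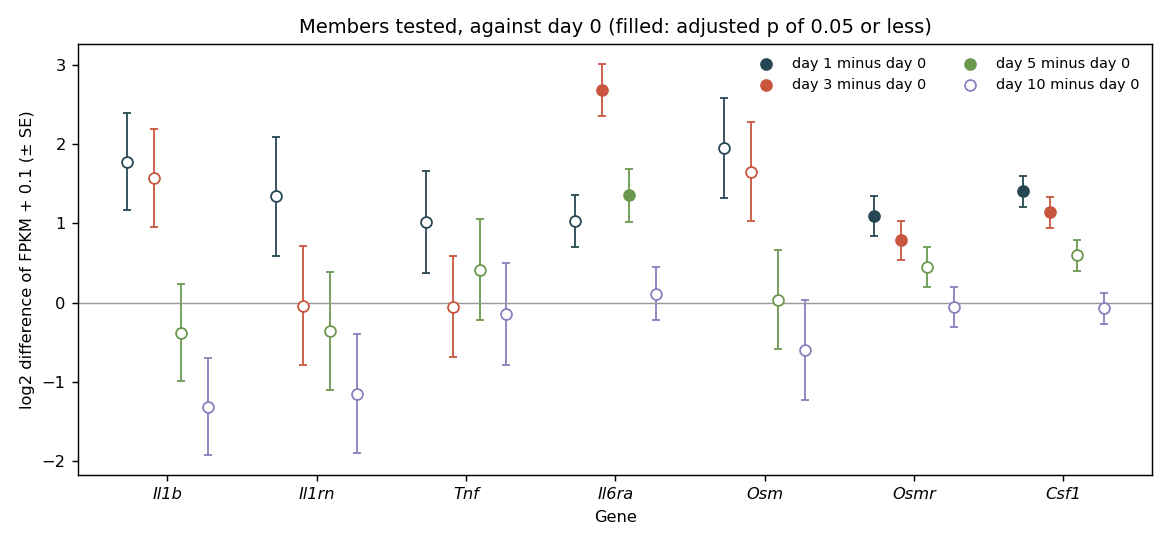
Log2 difference of FPKM + 0.1 against D0 (vertical axis, ± SE) for the 7 genes tested (horizontal axis) on D1, D3, D5 and D10, with filled points for called genes. The filled points are *Osmr* and *Csf1* on D1, *Il6ra*, *Osmr* and *Csf1* on D3 and *Il6ra* on D5, and the intervals of *Il1b*, *Il1rn*, *Tnf* and *Osm* are wider.

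The 3 genes under the filter rested on few reads. *Il6* (ENSMUSG00000025746, chr5:30013114-30019981, plus strand) was at 0.431 and 0.188 FPKM on D1, that is 15 and 6 implied reads, and had at most 5 implied reads in each other library. *Il10* (ENSMUSG00000016529, chr1:131019845-131024974, plus strand) was listed at 0 in both D0 libraries, where 3 reads would be 0.184 and 0.172 FPKM. It was at 0.271 and 0.302 FPKM on D3, 7 and 8 implied reads. The lower D3 value was 1.47 times the larger of these limits, with the counting error of the 7 and 8 reads left out. *Lif* (ENSMUSG00000034394, chr11:4257557-4272514, plus strand) was at 0.384 and 0.330 FPKM on D3, 33 and 29 implied reads, above the 0.0525 to 0.191 FPKM of the other 8 libraries. Without the filter on low values, *Il10* was the only one of the 3 called against D0, on D3 (adjusted p = 0.00762). Its D0 libraries, both at 0, add no spread to that fit, and the call rests on the 7 and 8 reads. How many of all genes were called in that fit is not given here.

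**Figure D3:**
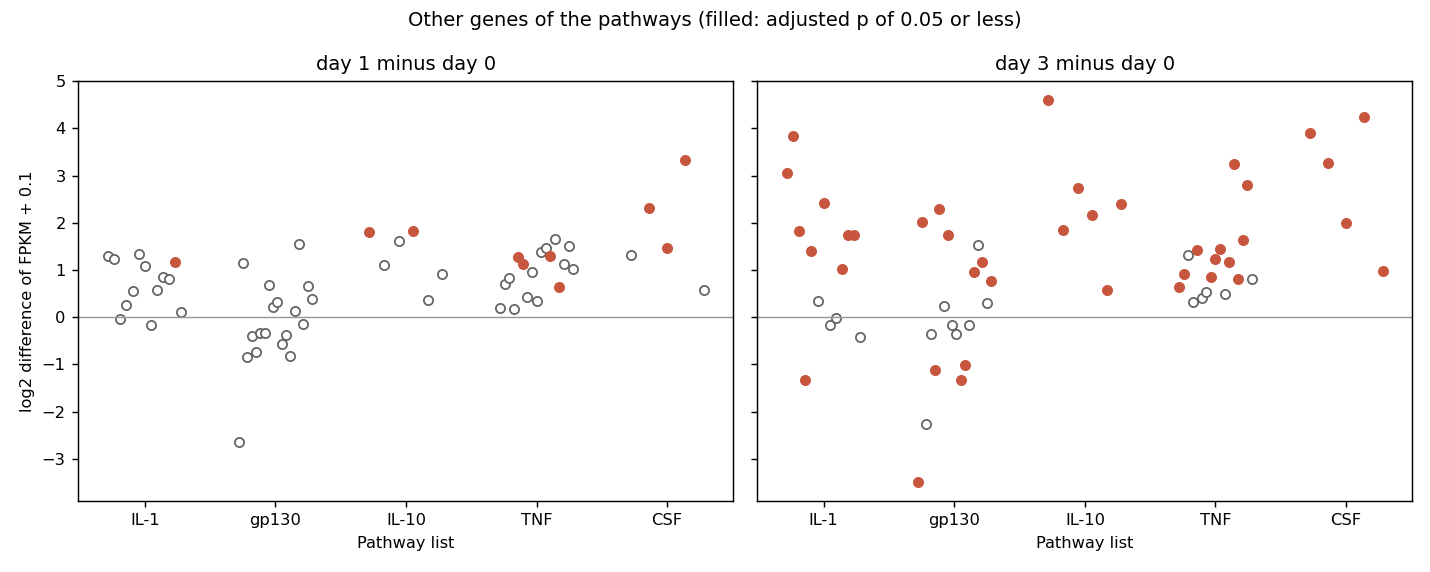
Log2 difference of FPKM + 0.1 (vertical axis) of the 59 other genes tested in 5 pathway lists (horizontal axis, each point a gene) on D1 and D3 against D0, with filled points for called genes. On D3, 36 genes were called higher and 5 lower, and on D1, 10 were called higher.

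Of 66 other genes of the same pathways, 59 were tested in muscle, and 10 were called higher and 0 lower on D1, 36 and 5 on D3, 18 and 2 on D5, and 0 and 0 on D10. Over all genes tested, 3.53% were called higher and 2.47% lower on D1, 24.5% and 24.3% on D3, and 12.9% and 12.5% on D5. On D3 all 6 genes of the list for IL-10 and other anti-inflammatory signals and all 5 tested of the colony-stimulating factor list were called higher, with 8 of 13 in the IL-1 list, 11 of 17 in the TNF list and 6 of 18 in the gp130 list. The median log2 fold change on D3 was 2.28, 3.27, 1.41, 0.91 and 0.04 in these lists, in that order, beside 0.008 over all genes. The largest D3 rises were those of *Il10ra*, the ligand-binding IL-10 receptor chain, by 4.60 ± 0.310 from a mean of 0.604 to 16.6 FPKM, and of *Csf3r*, the G-CSF receptor, by 4.24 ± 0.307 from 0.244 to 6.19 FPKM (adjusted p = 2.6e-04 for each). *Csf3r* was below 0.5 FPKM on D0 and D10 and passed the filter only through D1, D3 and D5. The largest falls were those of *Cish*, a STAT5-induced inhibitor of cytokine signalling, by 3.49 ± 0.851 (adjusted p = 0.0118), and of *Il1a*, the other IL-1 ligand, by 1.34 ± 0.358 (adjusted p = 0.0171). *Il1a* thus stood at 0.128 and 0.200 FPKM on D3 against 0.488 and 0.645 on D0, while *Il1b* stood higher on D3 than on D0 in both libraries.

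On D1 the largest rises in the lists were *Csf3r* (3.34 ± 0.307, adjusted p = 0.00969) and *Csf2ra*, a chain of the GM-CSF receptor (2.31 ± 0.386, adjusted p = 0.0269). On D5 they were *Il10ra* (2.93 ± 0.310, adjusted p = 0.00760) and *Il18*, an IL-1 family cytokine (2.91 ± 0.437, adjusted p = 0.0112), while *Cish* fell by 3.08 ± 0.851 (adjusted p = 0.0365) and *Jak2*, a kinase bound to these receptors, fell by 1.03 ± 0.198 (adjusted p = 0.0157). From D3 to D10, 28 of the 59 genes were called lower and 2 higher, where 18.8% and 19.1% of all genes were, led by *Csf3r*, which fell by 3.85 ± 0.307, and *Il10ra*, which fell by 3.59 ± 0.310, while *Ctf1* rose by 0.93 ± 0.312 and *Jak2* by 0.68 ± 0.198. Between D1 and D3, where 14.5% of all genes were called higher and 16.6% lower, 13 genes were called higher, with *Il10ra* (2.80 ± 0.310) and *Ebi3* (2.62 ± 0.340) first, and 6 lower, with *Il1a* (fell by 1.59 ± 0.358) and *Jak2* (fell by 0.77 ± 0.198) first. Between D3 and D5, where 5.46% of all genes were called lower and 7.23% higher, 8 were called lower, with *Csf1r* (fell by 1.80 ± 0.320) and *Il10ra* (fell by 1.67 ± 0.310) first, and *Jak1* alone was called higher (0.70 ± 0.183).

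The genes closest to each member by Pearson r of log2(FPKM + 0.1) over the 10 muscle libraries, given as a description, included *Csf1r*, the CSF-1 receptor, for *Il6ra* (r = 0.983, after *Slc29a3* and *Gm2a*). *Csf1* was closest to *Nbeal2*, *Cd300lf* and *Ly96* (r = 0.983, 0.981 and 0.959) and *Osmr* to *Ccl9*, *Ccl6* and *Nbeal2* (r = 0.969, 0.959 and 0.958). *Il1b* was closest to *Id1*, *Eif4h* and *Osm* (r = 0.962, 0.955 and 0.952), *Osm* to *Copb2*, *Slc35c1* and *Tiam1* (r = 0.959, 0.957 and 0.955), *Il1rn* to *Cracr2b*, *Clec4d* and *Gm17092* (r = 0.941, 0.932 and 0.910), and *Tnf* to *Flii*, *Gm36495* and *Zfp52* (r = 0.909, 0.906 and 0.902). Between members, r was 0.949 for *Csf1* and *Osmr* and 0.104 for *Il6ra* and *Tnf*, the highest after *Il1b* and *Osm* and the lowest.

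Markers of other cell types moved with the same days. The summed level of 10 macrophage and monocyte genes was 49.1 and 102 FPKM on D0, 326 and 401 on D1, 1680 and 1629 on D3, 488 and 566 on D5, and 77.0 and 289 on D10, with all 10 genes at 0.5 FPKM or more in both libraries from D1 to D5. The 7 neutrophil genes summed to 1.55 and 5.22 FPKM on D0, 15.9 and 7.13 on D1, and 0.445 to 1.71 from D3 on, so that replicate 1 of D1, which had the higher *Il1b*, *Osm*, *Tnf* and *Il6*, also had the higher neutrophil sum. On D3 this did not hold: replicate 1 had the higher *Il1b* and *Osm* and the lower neutrophil sum, 1.48 against 1.71 FPKM. Replicate 1 of D1 also had the higher myoblast (1451 against 932 FPKM), T and NK cell (3.98 against 2.62) and eosinophil and mast cell sums (5.83 against 5.64). Its macrophage and monocyte, fibroadipogenic, endothelial and myofibre sums were the lower ones. Fibroadipogenic genes summed to 65.9 to 163 FPKM on D0 and D1 and 440 to 550 on D3 and D5. The 6 myofibre genes were at their lowest on D3, at 12820 and 11130 FPKM, against 45600 and 43890 on D0. T and NK cell genes were at 2.36 to 7.47 FPKM over the 10 libraries, highest on D3 (7.47 and 7.05). Eosinophil and mast cell genes were at 1.44 to 6.11 FPKM, endothelial genes at 26.8 to 75.8 FPKM and myoblast genes at 777 to 1451 FPKM. The part of these cell types in the cytokine levels was not tested.

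**Figure D4:**
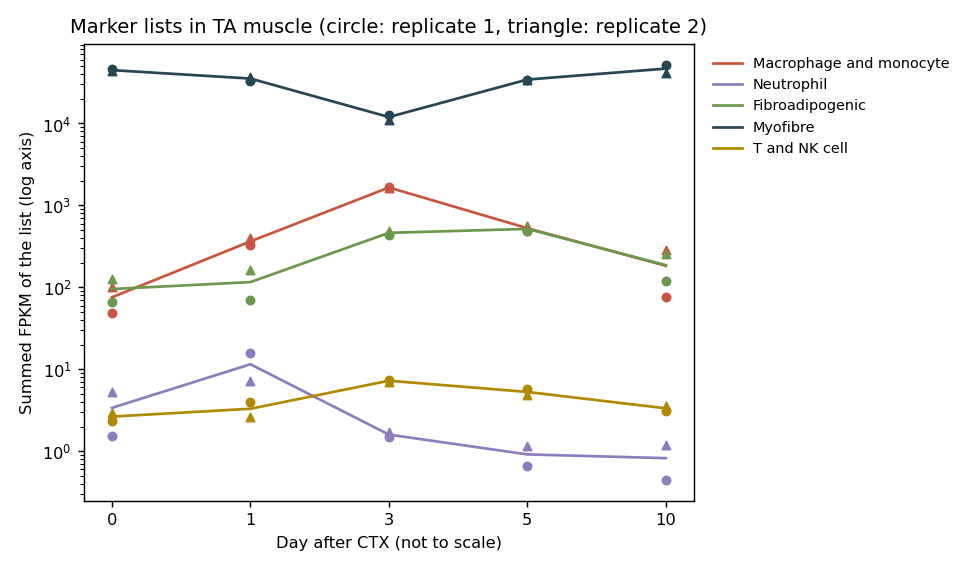
Summed FPKM (vertical axis, log scale) of 5 marker lists in each TA library by day after CTX (horizontal axis, not to scale), with circles for replicate 1, triangles for replicate 2 and lines for the mean. Macrophage and monocyte genes were highest on D3, neutrophil genes on D1, and myofibre genes were lowest on D3.

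In C2C12 cells, 6 of the 10 genes passed the filter, and *Il1b*, *Il10*, *Tnf* and *Osm* did not. *Il10* and *Osm* were listed at 0 in all 8 libraries, where 3 reads would be 0.072 to 0.237 FPKM for *Il10* and 0.0415 to 0.137 FPKM for *Osm*. *Tnf* had at most 2 implied reads in a library. *Il1b* was listed at 0 in 6 libraries and at 0.172 and 0.221 FPKM in Ctrl DM3, 9 and 7 implied reads. The lower of these values was 1.61 times the highest floor of 3 reads in Cas9M3 DM3 and 1.06 times that in Ctrl GM. Both ratios leave out the counting error of the 9 and 7 reads, so they are no lower bounds of a fold change. In the fit without a filter *Il1b* was called between Cas9M3 and Ctrl in DM3 (adjusted p = 0.0202) and between Ctrl DM3 and GM (adjusted p = 0.0284). Groups with both libraries at 0 add no spread to that fit. Its SE of 0.152 is therefore no measure of the spread between replicates, and both calls rest on the 9 and 7 reads. How many of all genes were called in that fit is not given here. Of the 10 macrophage and monocyte genes, 5 (*Adgre1*, *Itgam*, *C1qa*, *C1qb* and *C1qc*) were at 0 in all 8 libraries. *Ptprc*, *Cd68*, *Ly6c2*, *Lyz2* and *Mrc1* were not, and 3 of the list reached 0.5 FPKM. The 10 genes summed to 3.70 to 24.6 FPKM. Neutrophil genes summed to at most 0.554, T and NK cell genes to at most 0.0744, eosinophil and mast cell genes to at most 0.135 and endothelial genes to at most 0.110 FPKM. Fibroadipogenic genes summed to 456 to 1799 FPKM, lowest in Ctrl DM3.

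Between Cas9M3 and Ctrl, 0 of 6 genes were called in GM and 0 of 6 in DM3. At an unadjusted p under 0.05 were 2 members in each, and 1244 and 2429 of the 13824 genes tested (limma). Of all genes tested, 0.0% and 1.98% were called in either direction, 0 and 274 genes. With the replicate block the DM3 count over all genes was 505, and still 0 of the 6 were called. With a block within each stage, chosen after the data were seen, *Csf1*, *Il1rn* and *Lif* passed in DM3 (adjusted p = 0.0342, 0.0373 and 0.0398), 3 of 6 where 10.8% of all genes passed. In DM3 the Cas9M3 and Ctrl libraries did not overlap for any of the 6 genes tested, as for 63.5% of all genes tested. For the difference between stages, 0 of 6 genes and 0.0% of all genes were called for a Cas9M3 effect that differed between DM3 and GM. At an unadjusted p under 0.05 were 1 member, *Lif*, and 1198 of the 13824 genes tested (limma).

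*Lif*, the gp130 ligand, was the member with a called change in these cells. It was at 0.195 and 0.143 FPKM in Ctrl GM, 2.29 and 1.62 in Ctrl DM3, 0.269 and 0.288 in Cas9M3 GM, and 0.289 and 0.485 in Cas9M3 DM3. Ctrl DM3 thus stood above the other 6 libraries, on 273 and 117 implied reads against 6 to 37. The same 2 libraries had the highest marker sums of differentiation, 456 and 410 FPKM for myofibre genes against 12.1 and 9.43 in Cas9M3 DM3, and 202 and 193 FPKM for myoblast genes against 31.4 and 31.2. Both sums in Ctrl DM3 lay above every GM library too (4.23 to 117 FPKM for myofibre and 14.1 to 72.3 FPKM for myoblast genes), and their part in *Lif* was not tested. From GM to DM3 *Lif* rose in Ctrl cells by 2.92 ± 0.413 (adjusted p = 0.0394), 1 of 6 genes, where 0.767% of all genes tested were called higher (158 genes in either direction, 411 with the replicate block) and 0.535% also passed the fold change rule, as *Lif* did. That call was lost when any library but Ctrl GM replicate 1 was left out (adjusted p 0.0578 to 0.426). It was also lost without a filter, with a filter at 1 FPKM or with only the compared groups. *Lif* reached 0.5 FPKM in 2 libraries only, both of Ctrl DM3, so it was tested because of the group in which it was high. Its rise there and its difference from Cas9M3 DM3 are not free of that selection. In Cas9M3 cells *Lif* differed between DM3 and GM by 0.33 ± 0.413 (adjusted p = 0.856), and 0 of 6 genes were called there, against 0.0289% of all genes. At an unadjusted p under 0.05 there were 0 members and 1748 of the 13824 genes tested (limma). In DM3 *Lif* was 2.09 ± 0.413 lower on the log2 scale in Cas9M3 than in Ctrl (log2 fold change −2.09, that is 4.25-fold lower, adjusted p = 0.0673, and 0.0583 with the replicate block). Without either Ctrl GM library it passed the threshold (adjusted p 0.0419 and 0.0428). The difference of the Cas9M3 effect between stages was −2.59 ± 0.584 (adjusted p = 0.312).

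*Csf1* had the highest level of the 10 genes in 6 of the 8 libraries. It was at 104 and 75.8 FPKM in Ctrl GM, 141 and 136 in Cas9M3 GM, 81.4 and 74.2 in Ctrl DM3, and 153 and 151 in Cas9M3 DM3. All 4 Cas9M3 libraries lay above all 4 Ctrl libraries, and the share of all genes separated in this way is not given here. The log2 fold change was 0.64 ± 0.213 in GM (adjusted p = 0.501) and 0.97 ± 0.213 in DM3 (adjusted p = 0.0821, and 0.0542 with the replicate block), the latter passing without either Ctrl GM library (adjusted p = 0.0236 for each).

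*Il1rn* was measured in all 8 libraries, 6 of which listed *Il1b* at 0. It was at 117 and 11.8 FPKM in Ctrl GM, 231 and 28.1 in Cas9M3 GM, 24.1 and 24.8 in Ctrl DM3, and 44.9 and 40.5 in Cas9M3 DM3. The replicates of GM differed 9.97-fold in Ctrl and 8.21-fold in Cas9M3 cells, against 1.03-fold and 1.11-fold in DM3. Cas9M3 was above Ctrl in 4 of 4 same-numbered pairs, 1.97 and 2.39 times in GM and 1.87 and 1.64 times in DM3. How many of all genes had the same sign in all 4 pairs is not given here. The log2 fold change was 1.11 ± 1.27 in GM (adjusted p = 0.816) and 0.80 ± 1.27 in DM3 (adjusted p = 0.839). The same replicate 1 libraries of GM had the higher sums of myofibre genes, 117 against 12.4 FPKM in Ctrl and 75.9 against 4.23 in Cas9M3, and the lower share of reads on the ribosomal locus, and their part in *Il1rn* was not tested.

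*Osmr*, *Il6ra* and *Il6* were not called between Cas9M3 and Ctrl. *Osmr* was at 26.5 and 10.2 FPKM in Ctrl GM, 25.9 and 13.3 in Cas9M3 GM, 13.0 and 10.1 in Ctrl DM3, and 20.3 and 16.0 in Cas9M3 DM3, a difference in DM3 of 0.65 ± 0.509 (adjusted p = 0.615). *Il6ra* was at 6.42 and 2.53 FPKM in Ctrl GM, 7.30 and 1.49 in Cas9M3 GM, 6.04 and 4.64 in Ctrl DM3, and 4.08 and 2.97 in Cas9M3 DM3 (−0.59 ± 0.762, adjusted p = 0.790). *Il6* was lower in Cas9M3 in 4 of 4 same-numbered pairs, again without the share of all genes. It was at 1.57 and 1.45 FPKM in Ctrl GM, 0.496 and 0.897 in Cas9M3 GM, 1.35 and 1.36 in Ctrl DM3, and 0.842 and 0.785 in Cas9M3 DM3. Its log2 fold change was −1.06 ± 0.327 in GM (adjusted p = 0.466) and −0.67 ± 0.327 in DM3 (adjusted p = 0.370). Of the 4 genes other than *Lif* and *Csf1*, the interval of ± 2 SE in DM3 ran from −1.74 to 3.34 for *Il1rn*, −0.37 to 1.67 for *Osmr*, −2.11 to 0.93 for *Il6ra* and −1.33 to −0.02 for *Il6*.

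**Figure D5:**
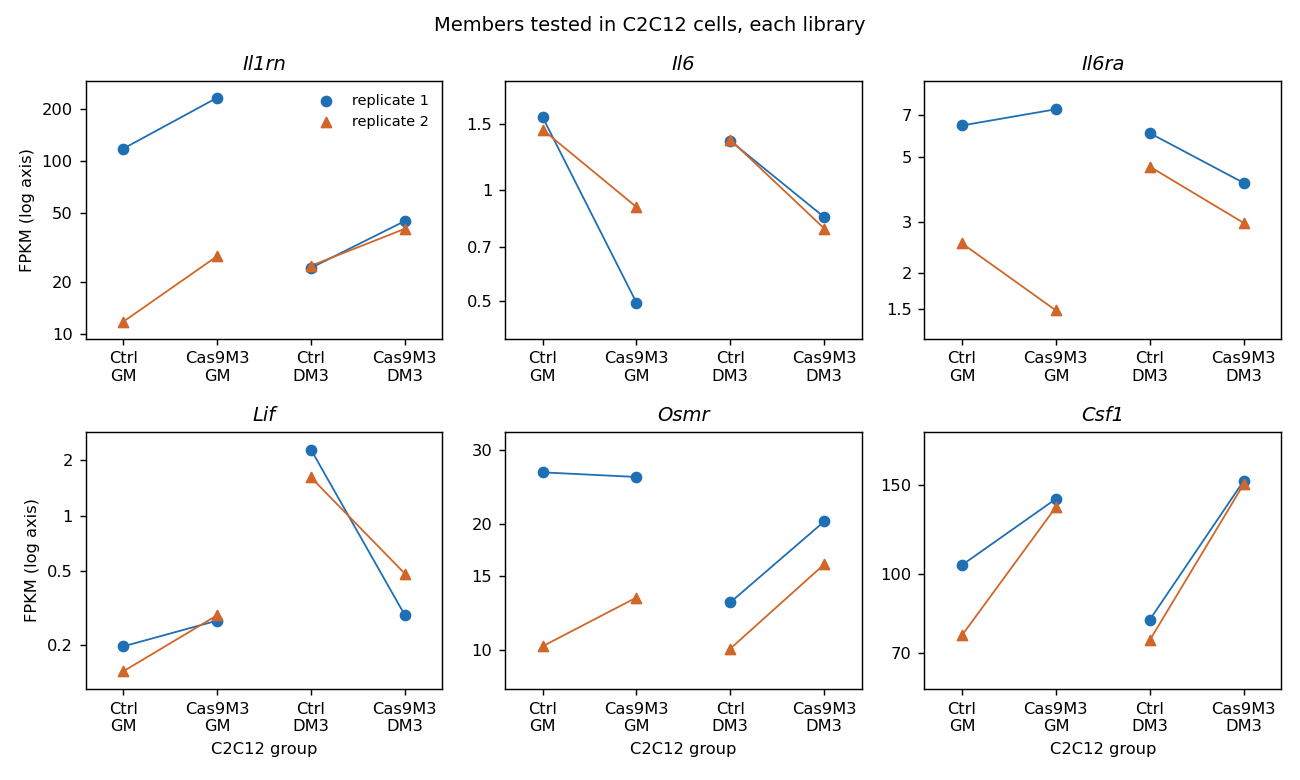
FPKM (vertical axis, log scale) of the 6 genes tested in C2C12 cells in each library of Ctrl and Cas9M3 cells in GM and DM3 (horizontal axis), with lines joining same-numbered libraries. *Csf1* and *Il1rn* were higher and *Il6* lower in Cas9M3 in all 4 pairs, and *Lif* was high only in Ctrl DM3. The share of all genes with the same sign in all 4 pairs is not given here.

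Of the 66 other pathway genes, 48 were tested in C2C12 cells and 2 were called between Cas9M3 and Ctrl in DM3, where 1.98% of all genes were (274 genes, 505 with the replicate block), both in the IL-1 list. *Irak3*, an inhibitor of IL-1 receptor signalling, was at 0.0992 and 0.0490 FPKM in Ctrl DM3 and 1.33 and 1.28 in Cas9M3 DM3, a rise of 3.02 ± 0.513 (adjusted p = 0.0473). It reached 0.5 FPKM only in Cas9M3 libraries, so *Irak3* was tested because of the cells in which it was high. *Il33*, an IL-1 family cytokine, was at 106 and 113 FPKM in Ctrl DM3 and 17.2 and 16.6 in Cas9M3 DM3, and fell by 2.68 ± 0.372 (adjusted p = 0.0313). None of the 48 was called in the other 4 comparisons of C2C12 groups.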

How the data were processed

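TA muscle and C2C12 libraries were made with a SMARTER mRNA-seq kit. In the authors' processing, HISAT2 alignments to GRCm38 were summarised over Ensembl genes by featureCounts, and the deposited FPKM values came from the fpkm function of DESeq2, and versions are not given in the sources used here. Low FPKM values were whole multiples of a step for 96.53% to 98.74% of values (tolerance 0.02 reads), which gave 14160000 to 29600000 reads per library. Implied reads and floors of 3 reads cover counting error only.

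Values were tested as log2(FPKM + 0.1) with limma 3.58.1 (R 4.3.3, trend), all groups of a table in 1 fit, for genes at 0.5 FPKM or more in at least 2 libraries, with Benjamini-Hochberg adjustment over all genes tested. The fit was checked on simulated data. Alternatives were other pseudocounts (0.01 and 1), filters, scalings, groups in the fit, a replicate block, a term for *Xist* and each library left out. In C2C12 cells deviations of same-numbered libraries correlated at 0.278 to 0.680, so the numbers pair them by this measure, as no label does.

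All 10 members were named, with the 2 largest called rises and falls per comparison among 66 pathway genes and the 3 closest genes of each member tested. Members, lists and markers were chosen with earlier results of these data known. Overexpression libraries were not analysed here. Promoters came from RefSeq (GRCm38.p6).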

Additional observations from a re-analysis of the deposited data

How the results depend on the processing

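Of 686 values of single genes under settings other than leaving out a library, 630 kept direction and side of the threshold, 31 lost a call, 12 gained one and 13 changed sign, and of 730 values with 1 library left out these were 628, 44, 14 and 44. No called value changed sign. Median-ratio scaling changed nothing, its factors being equal in all libraries of a table, and quantile normalization moved the median of all genes to −0.116 (log2) for D3 against D0. The causes of these changes were not tested, other than fewer samples or genes in a fit.

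The number of members called on D1 against D0 (2) became 1 with a pseudocount of 0.01, without a filter or with quantile normalization, 0 with only the compared groups, the *Xist* term or the fold change rule, and 0 to 2 with 1 library left out. For D3 against D0 (3) it was 1 with the fold change rule, 2 with quantile normalization, only the compared groups or the *Xist* term, 4 with the replicate block, and 2 to 5 with 1 library left out. For D5 against D0 (1) it was 0 without a filter, with quantile normalization, only the compared groups, the *Xist* term or the fold change rule, and 0 to 2 with 1 library left out. For D3 against D1 (1) it was 2 with a pseudocount of 1, 0 with the *Xist* term or the fold change rule, and 0 to 2 with 1 library left out. For D5 against D3 (1) it was 2 with quantile normalization, 0 with a pseudocount of 0.01, no filter, only the compared groups, the *Xist* term or the fold change rule, and 0 to 2 with 1 library left out. For D10 against D3 (5) it was 2 with the *Xist* term, 3 with the fold change rule, 4 with a pseudocount of 1, quantile normalization or only the compared groups, and 2 to 6 with 1 library left out. For Cas9M3 against Ctrl in DM3 (0) it was 1 with a pseudocount of 1, without a filter or with quantile normalization, 3 with only the compared groups, 3 with the replicate block by stage and 0 to 2 with 1 library left out. For Ctrl DM3 against GM (1) it was 0 with a filter at 1 FPKM or only the compared groups, and 0 to 1 with 1 library left out. Without a filter this count stayed at 1, but *Lif* lost its call and *Il1b* was called in its place (adjusted p = 0.0284). For D3 against D0 and D10 against D3 the counts also held without a filter. There *Il10* was called (adjusted p = 0.00762 and 0.0208) and a tested member lost its call. Of the 79 results of tested members, 6 lost a call in that fit. The other 4 comparisons stayed at 0. Counts over all genes moved with the setting too. With the *Xist* term they went from 1005 to 0 on D1, from 4267 to 0 on D5 and from 2126 to 0 between D3 and D5. For Cas9M3 against Ctrl in DM3 they went from 274 to 505 with the replicate block and 1498 with that block by stage. Changes in member counts are thus not results about the members, and the counts over all genes for most other settings are not given here.

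The replicate block over all groups changed 1 call, that of *Il1b* on D3 (log2 fold change 1.57, adjusted p = 0.0409). In muscle, deviations of same-numbered libraries correlated at −0.0187 to 0.211, so these share only a number.

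Signs changed for uncalled values only. *Tnf* came to 0.020 on D3 with a pseudocount of 1, 0.65 on D3 with the *Xist* term, −0.19 on D5 and 0.55 from D3 to D10 with quantile normalization. *Osm* came to −0.0082 on D5 with a pseudocount of 1, −1.13 with quantile normalization, −0.95 with the *Xist* term, and 0.19 from D1 to D3 with that term, as *Il1b* came to 0.43. Quantile normalization gave −0.047 for *Il6ra* on D10, 0.045 for *Csf1* in Ctrl DM3 against GM and 0.031 for *Osmr* in Cas9M3 DM3 against GM, where *Il6ra* was −0.017 with a pseudocount of 1.

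With 1 library left out, signs also changed and the log2 fold change ran over these ranges. For D3 against D0, −0.24 to 0.17 for *Il1rn* and −0.75 to 0.65 for *Tnf*. For D5 against D0, −0.91 to 0.19 for *Il1rn* and −0.51 to 0.58 for *Osm*. For D10 against D0, −2.38 to 0.079 for *Il1rn*, −0.15 to 0.37 for *Il6ra*, −0.78 to 0.50 for *Tnf*, −0.31 to 0.20 for *Osmr* and −0.35 to 0.21 for *Csf1*. For D3 against D1, −1.12 to 0.71 for *Il1b* and −0.98 to 0.38 for *Osm*. For D5 against D3, −0.87 to 0.23 for *Il1rn* and −0.24 to 1.17 for *Tnf*. For D10 against D3, −2.34 to 0.12 for *Il1rn* and −0.79 to 0.61 for *Tnf*. For Cas9M3 against Ctrl in GM, −0.54 to 2.77 for *Il1rn*, −1.38 to 0.84 for *Il6ra* and −0.51 to 0.86 for *Osmr*. For Ctrl DM3 against GM, −2.26 to 1.05 for *Il1rn*, −0.27 to 1.04 for *Il6ra*, −1.20 to 0.16 for *Osmr* and −0.42 to 0.035 for *Csf1*. For Cas9M3 DM3 against GM, −2.43 to 0.60 for *Il1rn*, −0.13 to 0.62 for *Il6*, −1.05 to 1.17 for *Il6ra* and −0.52 to 0.43 for *Osmr*. For the Cas9M3 effect in DM3 against GM, −1.96 to 1.34 for *Il1rn*, −1.43 to 0.79 for *Il6ra* and −0.21 to 1.16 for *Osmr*.

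Depth limits *Il6*, *Il10*, *Osm* and *Tnf*, at no more than 47 implied reads in any muscle library. With 2 libraries a group, an uncalled difference does not show that levels were equal.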
